A study of Rattus norvegicus with 20 samples.

Results

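The comparison set untreated jaundiced pups against untreated non-jaundiced controls of the Gunn rat strain, 5 libraries against 5, out of 20 in the series. Members were chosen by genotype and by the absence of phototherapy in the labels, and every gene that passed a filter on low counts was examined. All 20 pups were of the Gunn strain, were sampled at postnatal day 6, and gave polyA libraries of hippocampus prepared with Illumina Truseq chemistry. Untreated Nj pups were heterozygous and not jaundiced. Untreated jj pups were homozygous and jaundiced, and neither group received light. The other 10 pups, 5 Nj and 5 jj, received intermittent LED light from day 4, 12 h in total, and serve here only as a second look at the genotype difference in other animals. The control group still carries 1 mutant allele, so it is not a wild-type group. No bilirubin level was analysed here, and jaundice is taken from the labels.

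In the Gunn rat an inherited defect disables the liver enzyme that conjugates bilirubin for export into bile. Homozygotes accumulate unconjugated bilirubin from birth, and the free pigment can cross into brain and injure neurons, with hippocampus, basal ganglia, cerebellum and brainstem among the regions studied in bilirubin encephalopathy. Microglial activation, endoplasmic reticulum stress, oxidative stress and glutamate receptor overactivity are processes linked to bilirubin in cultured neural cells, and gene lists for these and for the cell types of the tissue were examined.

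Depth, as total counts in mega (M), was 16.9 to 22.1 M in untreated jj (mean 19.1 ± 2.1, SD, n = 5) and 19.1 to 27.1 M in untreated Nj (23.4 ± 3.3, SD, n = 5). Of 32883 genes listed, 15272 passed the filter. Of 20 hippocampal subfield markers, 18 were tested, among them the dentate gene Prox1 (121 CPM in jj and 126 in Nj) and Mpped1 (322 and 321). CPM here is the count of a gene scaled to a common library size (counts per mega, after TMM scaling). Libraries of the 2 groups were as alike as libraries of 1 group: correlations of log2 CPM across genes, which are not independent replicates, were 0.973 to 0.991 between groups, 0.972 to 0.992 within jj and 0.983 to 0.990 within Nj. One library stood apart. Untreated jj 3 lay at 52.2 on the first principal component (30.2% of variance), while the other 9 lay between -18.7 and 15.7. It also held 9662 CPM of Ttr, the transthyretin gene of choroid plexus, against 6.73 to 159 in the other jj libraries. Untreated Nj 3 held 4111 CPM, and the other Nj libraries 3.57 to 762. The male-specific gene Kdm5d passed 10 CPM in 2 libraries of each group. All 5 untreated jj titles begin with J17, and the Nj titles begin with J13, J14 or J15, so whatever the prefix stands for and the genotype cannot be told apart. The labels name no shared animal, so libraries were counted as separate pups. If they were not, the p-values measure only the spread between these samples.

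No gene passed the threshold. By edgeR's quasi-likelihood test, 0 of 15272 genes had a Benjamini-Hochberg adjusted p under 0.05 (0% called), and the lowest adjusted p was 0.112, for Anp32a. Every other gene had an adjusted p of 0.775 or more. At an unadjusted p under 0.05 there were 972 genes (6.36% of those tested), where 763.6 would be expected without any change. Of these, 564 were higher in jj (3.69%) and 408 lower (2.67%). Without untreated jj 5 this count was 1692 (11.0%), and without untreated jj 3 it was 713 (4.64%). It was 756 (4.88%) without libraries above 1000 CPM of Ttr and 1375 (9%) with meningeal and choroid plexus levels as covariates. With the untreated libraries fitted alone it was 658. The counts of 713, 756 and 658 lay below 763.6, the number expected for 15272 genes. DESeq2 called 1 gene, the same Anp32a entry. Fold changes were small: the median absolute log2 fold change was 0.07, 423 genes exceeded 0.5 and 63 exceeded 1. All folds below are jj relative to Nj on the log2 scale, with the standard error (SE) of the fit.

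Most changes were bounded closely, with the spread estimated over all 20 libraries. The 95% interval of the log2 fold change had a median half-width of 0.17, or 1.13-fold. For 12574 genes (82.3%) the whole interval lay within 1.5-fold in either direction, and for 14302 (93.6%) within 2-fold. Expression level set this precision: with genes in 4 equal classes by expression, 99.1% of the highest class were bounded within 1.5-fold, against 39.3% of the lowest. In the lowest class the median half-width was 0.48, or 1.39-fold.

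**Figure D1:**
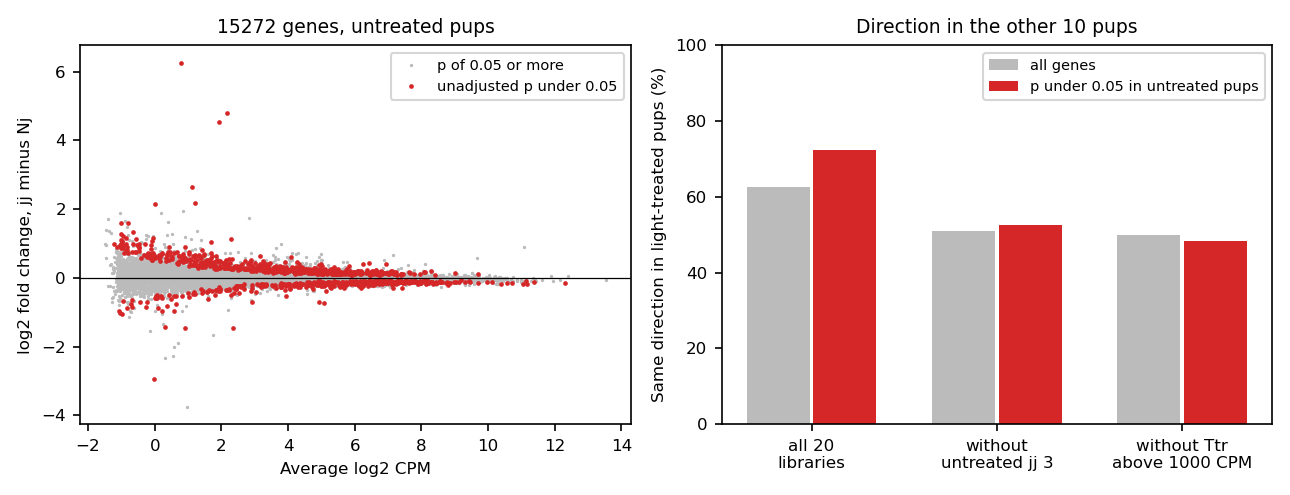
Left, log2 fold change (jj minus Nj, untreated pups) against average log2 CPM for 15272 genes, with the 972 genes at an unadjusted p under 0.05 in red. Right, percent of genes whose fold change had the same sign in the light-treated pups, for all genes (grey) and for genes at p under 0.05 in untreated pups (red): 62.6% and 72.3% with all libraries, 51% and 52.7% without untreated jj 3, and 50% and 48.3% with libraries above 1000 CPM of Ttr left out.

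Anp32a encodes an acidic nuclear phosphoprotein that inhibits protein phosphatase 2A (PP2A) and binds histones. The table lists it under 2 identifiers. The entry ENSRNOG00000058484 held 50.2, 41.6, 37.5, 43.2 and 30.6 CPM in the 5 untreated Nj pups and 25.9, 25.9, 19.1, 27.9 and 25.8 in the 5 untreated jj pups. The groups did not overlap, and the highest jj pup lay just under the lowest Nj pup. The log2 fold change was -0.70 (SE 0.12), with an adjusted p of 0.112 by edgeR. The call depended on the tool and on 1 library: DESeq2 gave an adjusted p of 0.000105, and edgeR without untreated Nj 5 gave -0.79 with an adjusted p of 0.0065. Over all alternatives run the fold change lay between -0.58 (Nj libraries of prefix J15 alone) and -0.79. The adjusted p lay between 0.000105 and 0.983, the highest by edgeR with the libraries above 1000 CPM of Ttr left out, and was 0.880 by edgeR with untreated libraries alone.

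The other entry, ENSRNOG00000014846, differed less. It held 21.7, 19.8, 22.6, 21.4 and 31.7 CPM in untreated Nj and 22.2, 20.4, 19.6, 20.03 and 20.7 in untreated jj, and the ranges overlapped (-0.19, SE 0.18, and -0.05 without Nj 5). Nj 5, the lowest Nj pup for the first entry, was the highest for this one. Reads of near-identical copies can be divided between entries by alignment, so the level of either entry is uncertain. Summed over both entries, untreated Nj held 71.8, 61.3, 60.1, 64.6 and 62.3 CPM and untreated jj 48.0, 46.3, 38.7, 48.0 and 46.5, again without overlap. In the light-treated pups the sum was 61.0 ± 11.4 (SD, n = 5) in Nj and 51.6 ± 2.6 (SD, n = 5) in jj, and the ranges overlapped. The first entry did not differ there, at 28.4 ± 4.1 CPM in Nj and 28.3 ± 2.3 in jj (SD, n = 5). The gap in the treated sum lay in the second entry, at 32.6 ± 11.3 CPM in Nj and 23.3 ± 3.2 in jj (SD, n = 5).

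**Figure D2:**
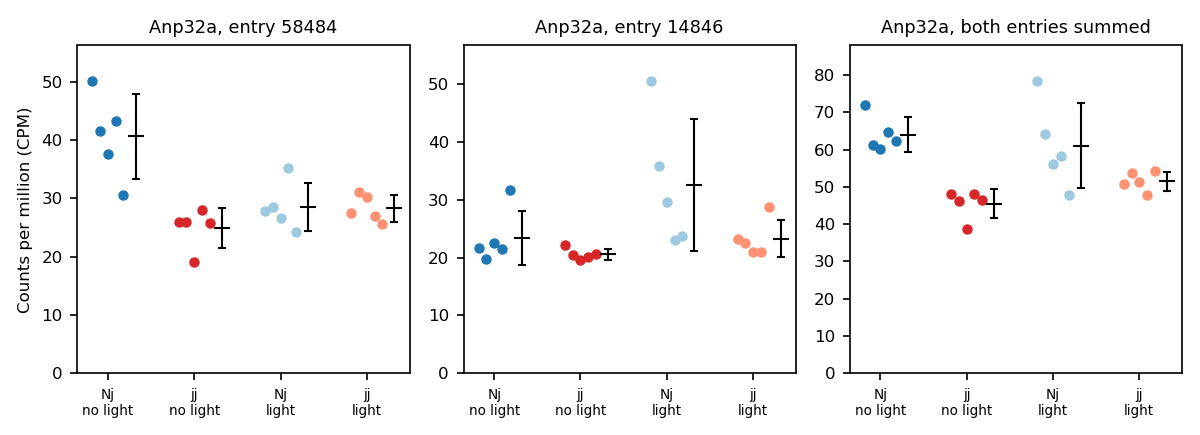
CPM of the 2 Anp32a entries and of their sum in all 20 pups (1 point per pup; bars are mean ± SD of 5). The first entry separates untreated Nj (30.6 to 50.2) from untreated jj (19.1 to 27.9), and the second overlaps between them.

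In the wider set of Anp32 and PP2A genes all 14 tested entries had negative fold changes (median -0.07), but only the first Anp32a entry had an unadjusted p under 0.05. Anp32e, a histone chaperone of the family, had -0.13 and Ppp2cb, a catalytic subunit, -0.10. The entry count was 14 of 14 also in light-treated pups (median -0.08). Without untreated jj 3, 2 of 14 were positive and the median was -0.05, and without the libraries rich in Ttr (above 1000 CPM) 2 were positive and the median was -0.03. Without untreated jj 5, 4 of 14 had an unadjusted p under 0.05, all lower, where 768 of 15357 genes were lower at that p. Over all genes the median was 0.00 and 51.0% were positive.

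In 153 genes (1.00%) the CPM ranges of the 2 groups did not overlap, 73 higher in jj (0.478%) and 80 lower (0.524%). For 5 against 5 exchangeable values the chance of ranges apart, in either direction, is 0.0079 per gene, not far under the observed share. Leaving out 1 library at a time gave 235 to 577 such genes, the most without untreated jj 5. Fewer samples overlap less often, and how far this accounts for the counts was not tested. The named genes below are the 12 of lowest p in each direction among those with ranges apart. Their separation is thus part of how they were chosen.

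Among the higher genes, Pdzrn3, a ubiquitin ligase with PDZ domains, held 51.5, 54.1, 53.4, 57.0 and 57.2 CPM in Nj and 63.6, 66.7, 62.5, 62.4 and 59.6 in jj. Its fold change was 0.20 (SE 0.04). Every jj pup lay above every Nj pup, though the lowest jj pup was within a few CPM of the highest Nj pup. Gli2, a transcription factor of the Hedgehog pathway, held 7.80 to 9.32 CPM in Nj and 10.1 to 10.7 in jj (0.30, SE 0.08). Kdm8, a JmjC-domain hydroxylase, held 10.7 to 12.4 and 13.4 to 14.4 CPM (0.25, SE 0.06). These 3 genes had tight ranges in both groups.

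Several of the others rested on lower counts. Lpp, a focal adhesion protein, held 2.11 to 2.79 CPM in Nj and 3.33 to 4.66 in jj (0.65, SE 0.19). Trappc6a, part of a vesicle tethering complex, held 5.72 to 6.34 and 6.80 to 11.9 CPM (0.46, SE 0.13). The top value of Trappc6a was that of untreated jj 3, the library with most Ttr, and without it the fold change was 0.30. Dgkh, a diacylglycerol kinase, had 0.29 (SE 0.08), Ccdc107 0.22 (SE 0.05), and Caln1, a neuronal calcium-binding protein, 0.20 (SE 0.06).

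Among the lower genes, Uba1, the main enzyme that activates ubiquitin, held 515, 503, 517, 548 and 534 CPM in Nj and 494, 472, 468, 474 and 469 in jj. Its fold change was -0.14 (SE 0.04), and the gap between the groups was smaller than the range within either. Rangap1, which activates the GTPase of the nuclear transport factor Ran, held 253 to 285 and 241 to 250 CPM (-0.13, SE 0.04). Trim32 and Klhl7 also act in ubiquitin transfer, as a ligase and as an adaptor of a cullin ligase. Trim32 had -0.14 (SE 0.04) and Klhl7 -0.21 (SE 0.07), and Klhl7 was lowest in untreated jj 3, at 99.6 CPM. Without that library Klhl7 had -0.12.

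Srpk1, a kinase of splicing factors, held 83.3 to 87.3 CPM in Nj and 73.4 to 81.2 in jj (-0.14, SE 0.04). Rufy1, an endosomal effector of Rab proteins, held 25.5 to 27.8 and 21.3 to 23.5 CPM (-0.21, SE 0.06). Prag1, a pseudokinase, had -0.20 (SE 0.06), and Prr11, a gene of the cell cycle, -0.37 (SE 0.12). Fam184b had -0.19, Zfp57, a zinc finger protein that maintains imprints, -0.15, and Fam120b -0.13. Among the 24 genes the absolute fold changes on the lower side, Anp32a and Prr11 apart, were no more than 0.21.

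**Figure D3:**
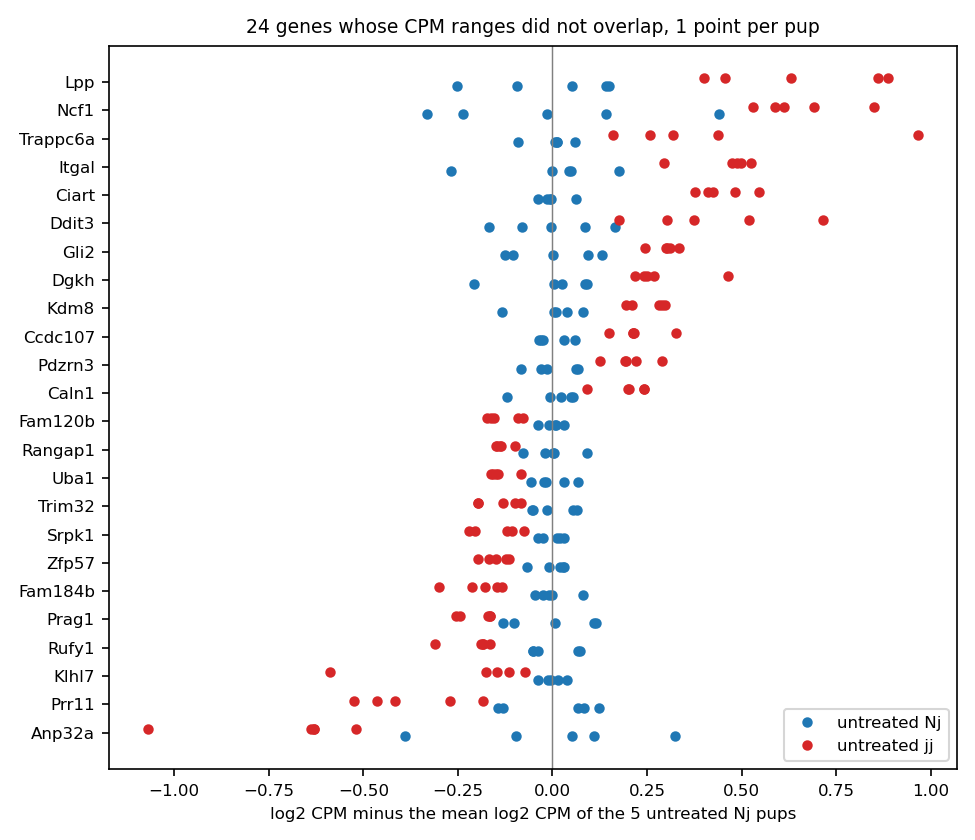
Log2 CPM of the 24 named genes in the 10 untreated pups, each relative to the mean of the 5 Nj pups (blue, Nj; red, jj; 1 point per pup). Red and blue do not overlap by the choice of genes. Anp32a has the widest spread on the lower side and Ncf1, Lpp and Trappc6a on the higher side.

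Genes of microglia, the resident phagocytes of brain, were more often higher than lower in jj. Of 22 tested microglial markers, 17 had positive fold changes (median 0.17), 8 were higher at an unadjusted p under 0.05 and 0 were lower, against 3.69% of all genes higher at that p. In bulk tissue, more cells of a type and more RNA per cell cannot be told apart. Adgre1, the F4/80 surface receptor of macrophages, held 6.23, 5.40, 6.78, 5.88 and 5.67 CPM in Nj and 10.1, 9.31, 6.69, 8.43 and 6.87 in jj. Untreated jj 3 lay inside the Nj range and the other jj pups lay above it. Its fold change was 0.47 (SE 0.11), the lowest p of the list (unadjusted 0.00021, adjusted 0.775 by edgeR).

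The C1q components C1qa and C1qb and the lysosomal marker Cd68 were also among the 8. C1qa, a chain of the complement initiator C1q, held 12.5, 13.2, 11.5, 13.8 and 13.6 CPM in Nj and 16.1, 15.9, 15.9, 15.6 and 13.9 in jj. The groups did not overlap, but untreated jj 5 was just above the top Nj pup. C1qb held 10.4 to 13.3 and 12.8 to 16.7 CPM (0.31, SE 0.09). Cd68, a lysosomal protein of phagocytes, held 1.253 to 1.99 CPM in Nj and 1.80 to 3.48 in jj (0.69, SE 0.23). Aif1, the Iba1 antigen, had 0.31 (SE 0.11), Spi1, the lineage transcription factor PU.1, 0.44, Csf1r, the receptor for the growth factor of microglia, 0.16, and Tyrobp, an adaptor of Trem2, 0.22.

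The homeostatic genes Cx3cr1 and P2ry12 held 8.67 ± 0.91 and 7.53 ± 1.2 CPM in Nj (SD, n = 5) and 9.80 ± 0.81 and 8.35 ± 0.55 in jj (SD, n = 5), with overlapping ranges. Their fold changes were 0.17 and 0.14, and neither had p under 0.05. Of the 22 microglial genes 5 had negative fold changes. Among these Tmem119, a marker of mature microglia, had -0.22 and Ptprc, the leukocyte antigen CD45, -0.16. Of the inflammatory genes, Il1b and Tnf were below the count filter. The list of cytokine and NF-kB genes had 13 of 15 positive (median 0.09). In it 1 gene (6.67%) had p under 0.05, the adhesion molecule Icam1 (0.50, SE 0.19). That share was near the 6.36% of all genes at that p in either direction.

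Of the complement and phagocytosis list, 17 of 18 tested genes were positive (median 0.20), 6 were higher at p under 0.05, against 3.69% of all genes, and 0 lower. It shared 7 tested genes with the microglial list (38.9% of the complement genes and 31.8% of the microglial genes). Besides those named, the C5a receptor C5ar1 (0.78, ranges apart) and the receptor kinase Axl (0.12) were among the 6. From the genes with ranges apart, Itgal, the alpha chain of the leukocyte integrin LFA-1, held 2.28 to 3.10 CPM in Nj and 3.36 to 3.95 in jj (0.45, SE 0.12). Ncf1, the p47 subunit of the phagocyte NADPH oxidase, held 1.246 to 2.13 and 2.27 to 2.83 CPM (0.63, SE 0.16).

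Border tissue differed between libraries at the same time. Meningeal fibroblast genes were positive in 16 of 17 (median 0.29, 0 at p under 0.05). Their summed level was 1147, 1346, 1354, 1081 and 531 CPM in untreated jj and 1060, 531, 1038, 963 and 817 in untreated Nj. Every jj pup except jj 5 thus lay above every Nj pup. Markers of border macrophages were positive in 6 of 8 (median 0.18), and in 8 of 8 without untreated jj 5 (median 0.34). With meningeal and choroid plexus levels as covariates they were positive in 3 of 8 (median -0.04). With meningeal and choroid plexus levels as covariates, the microglial median was 0.14 with 5 genes higher at p under 0.05, and the complement median 0.14 with 4. With the libraries above 1000 CPM of Ttr left out, the medians were 0.14 and 0.18, with 4 and 2 genes. Without untreated jj 3 they were 0.18 and 0.20, with 7 and 4. Over all genes, 728 of 15272 were higher at that p with the covariates. The counts were 389 of 15495 without the libraries rich in Ttr and 429 of 15352 without untreated jj 3. In light-treated pups 16 of 22 microglial genes (median 0.06) and 18 of 18 complement genes (median 0.08) were positive. At p under 0.05 there, 1 microglial gene was higher and 2 were lower, and 1 complement gene was higher and 0 were lower. Of all genes, 6.62% had p under 0.05 in treated pups, in either direction. Of the genes named above, Adgre1 had -0.04 there, Aif1 0.02, C1qa 0.19 and C1qb 0.18.

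**Figure D4:**
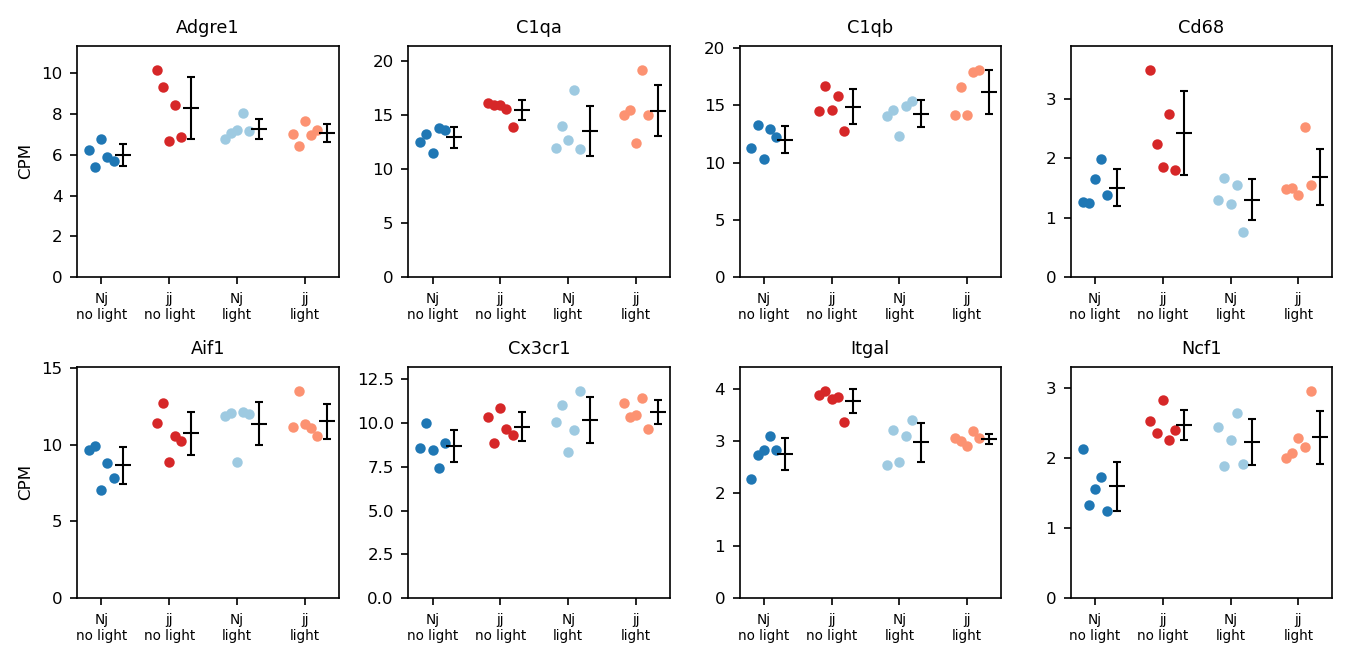
CPM of 8 genes of microglia and leukocytes in the 4 groups (1 point per pup, bars are mean ± SD of 5). Untreated Nj pups are the lowest group by mean for Adgre1, C1qa, C1qb, Aif1, Cx3cr1, Itgal and Ncf1; Itgal is higher in untreated jj than in any other group.

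Astrocyte and oligodendrocyte genes were mostly positive with small folds. Of 19 astrocyte markers, 16 were positive (median 0.08) and 3 were higher at p under 0.05, against 3.69% of all genes. Ntsr2, a neurotensin receptor of astrocytes, held 4.89, 9.36, 4.71, 7.14 and 6.49 CPM in Nj and 10.4, 8.90, 9.52, 8.91 and 6.68 in jj (0.45, SE 0.16). Fgfr3 (0.16) and Glul, glutamine synthetase (0.10), were the other two, while Gfap, the intermediate filament of reactive astrocytes, overlapped at 206 to 322 and 213 to 306 CPM. Without the libraries above 1000 CPM of Ttr the median was 0.03 and 0 astrocyte genes had p under 0.05, against 4.88% of all genes. Without untreated jj 3 there was 1, against 4.64% of all genes. Without untreated jj 5 there were 6, where 11.0% of all genes had p under 0.05 in either direction.

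Of 13 genes of oligodendrocyte precursors, 10 were positive (median 0.09). Pdgfra, the growth factor receptor that marks these cells, held 183 to 194 CPM in Nj and 192 to 221 in jj (0.13, SE 0.04), and Bmp4 had 0.42 (SE 0.20). Without the libraries rich in Ttr the list median was 0.00 (6 of 13 positive). Of 16 myelin genes 13 were positive (median 0.17, 0 at p under 0.05), and Mbp, myelin basic protein, held 49.6 to 86.9 CPM in Nj and 52.96 to 82.8 in jj.

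Choroid plexus genes differed most with the libraries used. Of 17 tested, 16 were positive with a median of 0.37. Without untreated jj 3 the count was 0 of 17 and the median -2.19, and without all libraries above 1000 CPM of Ttr it was 1 of 17 and -0.88. No member had an unadjusted p under 0.05 with all libraries.

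Genes of young neurons were more often lower. Of 21 tested, 16 were negative (median -0.09), 4 were lower at p under 0.05 against 2.67% of all genes, and 0 were higher. Tubb3, the neuronal beta-tubulin, held 1801, 1876, 1773, 2039 and 2049 CPM in Nj and 1762, 1687, 1697, 1625 and 1760 in jj. The groups did not overlap, with the closest pups at 1773 and 1762. Its fold change was -0.16 (SE 0.06), that of Tubb2b, another tubulin of growing neurites, -0.17 (SE 0.06) and that of Gap43, a growth cone protein, -0.17 (SE 0.06). Gap43 had -0.10 without untreated jj 3. The median was -0.07 without libraries rich in Ttr and -0.09 without untreated jj 3. Without untreated jj 5 there were 7 lower at p under 0.05, where 768 of 15357 genes were.

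Cholesterol synthesis genes lay in the same direction. Of 25, 20 were negative (median -0.09) and 6 were lower at p under 0.05, against 2.67% of all genes, with 0 higher. Without untreated jj 5 there were 9 lower, where 768 of 15357 genes were lower at that p. Without untreated jj 3 there were 4, where 284 of 15352 genes were. Fdft1, squalene synthase, had -0.13 (SE 0.04), and Acat2, which condenses acetyl-CoA, had ranges apart at 52.8 to 61.5 CPM in Nj and 46.6 to 51.3 in jj (-0.20, SE 0.08). In light-treated pups the list had 15 of 25 positive and a median of 0.01. The difference between the contrasts was not called for any gene, as given below.

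Of 18 heat shock genes 13 were negative (median -0.08), with 4 lower at p under 0.05, against 2.67% of all genes. There were 2 lower without untreated jj 3, where 284 of 15352 genes were, and 6 without untreated jj 5, where 768 of 15357 were. Hsp90ab1, the constitutive cytosolic chaperone, held 2344 to 2424 CPM in Nj and 2179 to 2297 in jj (-0.09, SE 0.04), and Hsph1 had -0.09. Without libraries rich in Ttr the median was -0.04 with 2 genes lower, where 367 of 15495 genes were. Immediate early genes, which report recent neuronal activity, were negative in 15 of 17 (median -0.09). At p under 0.05, 3 were lower, against 2.67% of all genes, and 0 were higher. There were also 3 lower without untreated jj 3 (284 of 15352 genes), without untreated jj 5 (768 of 15357) and without libraries rich in Ttr (367 of 15495). With meningeal and choroid plexus covariates there were 2 lower (647 of 15272). Egr1 held 23.0, 31.7, 23.5, 26.98 and 27.4 CPM in Nj and 22.4, 24.2, 20.1, 17.3 and 22.4 in jj (-0.32, SE 0.10). Npas4, induced by synaptic activity, held 0.60 to 3.57 and 0.63 to 1.47 CPM (-0.77, SE 0.34, and -0.40 without Nj 5), and Jun had -0.13 (SE 0.05).

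**Figure D5:**
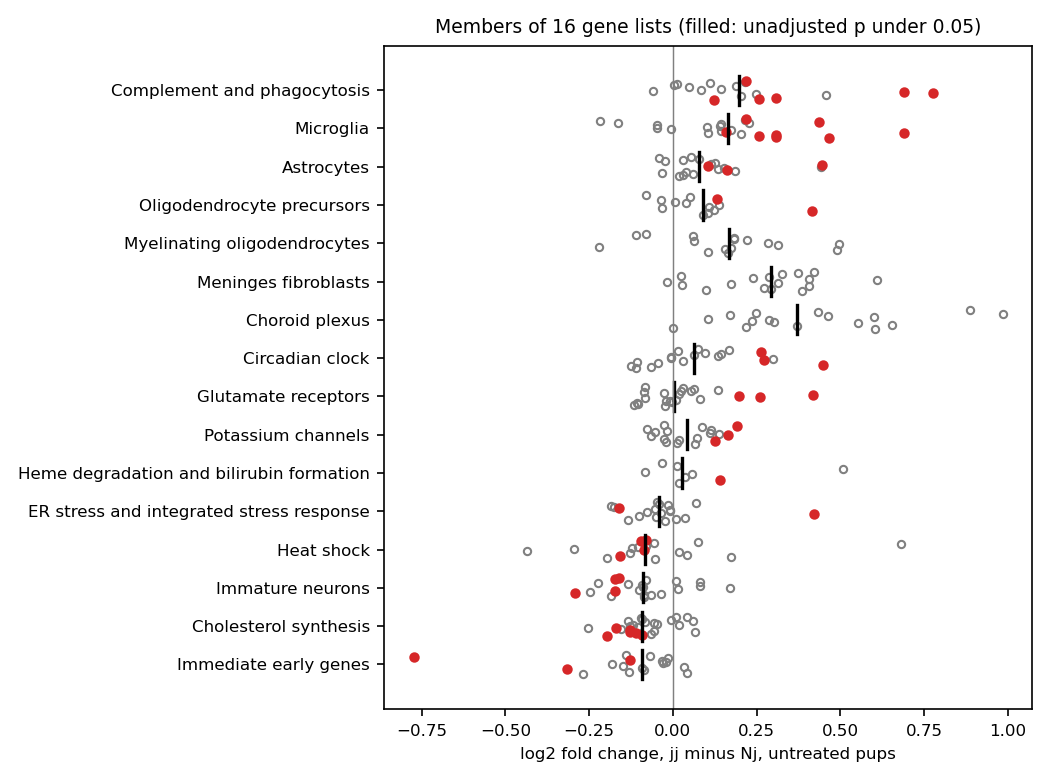
Log2 fold change (jj minus Nj, untreated pups) of each tested member of 16 gene lists, with the list median as a black bar and members at an unadjusted p under 0.05 filled. Filled points lie to the right in the microglial and complement lists and to the left in the lists for immature neurons, cholesterol synthesis, heat shock and immediate early genes.

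Of 19 clock genes 12 were positive (median 0.06), 3 were higher at p under 0.05, against 3.69% of all genes, and 0 lower. Ciart, a repressor of the clock activators, held 2.35, 2.39, 2.40, 2.52 and 2.41 CPM in Nj and 3.53, 3.24, 3.21, 3.37 and 3.13 in jj. Both groups were narrow, and the lowest jj pup lay well above the highest Nj pup. Its fold change was 0.45 (SE 0.11) with an adjusted p of 0.775 by edgeR, and 0.46 without untreated jj 3. Dbp, an output transcription factor of the clock, held 17.1 to 23.1 and 19.9 to 26.4 CPM (0.27, SE 0.08), and Per3 18.8 to 22.4 and 19.9 to 28.6 CPM (0.26, SE 0.09). Per2 also had ranges apart (0.10), while Arntl, the activator, had -0.11. The hour at which each pup was killed was not analysed here.

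The clock activators bind the E-box CACGTG, a palindrome that reads the same on both strands. The promoter of Ciart is shown because this gene had the cleanest separation of the list. It is the RefSeq window from 250 bases before to 50 after the start (GRCr8, chr2:186112197-186112496, minus strand, 5′ to 3′), with E-boxes in capitals.
Ciart: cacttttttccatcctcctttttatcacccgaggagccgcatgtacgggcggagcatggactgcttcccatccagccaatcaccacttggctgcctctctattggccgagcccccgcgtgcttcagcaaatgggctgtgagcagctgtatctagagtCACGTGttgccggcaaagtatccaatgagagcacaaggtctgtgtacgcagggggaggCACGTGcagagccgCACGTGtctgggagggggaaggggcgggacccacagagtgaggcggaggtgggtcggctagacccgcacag
The window held 3 E-boxes, which begin at positions -93, -35 and -21 from the start. Of 33469 promoters of this length, 6.42% held at least 1 and 0.0568% held at least 3. The windows of Dbp and Per3 held 0. A match describes letters only and no binding was measured.

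Receptors and channels gave mixed results. Of 22 glutamate receptor genes 11 were positive (median 0.00), and the 3 at p under 0.05 (3.69% of all genes were higher at that p) were all NMDA receptor subunits and higher. There were 2 higher without untreated jj 3, where 429 of 15352 genes were. Without the libraries rich in Ttr 1 was higher and 1 lower, where 389 and 367 of 15495 genes were. Grin2a held 49.3, 51.1, 47.2, 40.9 and 46.2 CPM in Nj and 48.7, 59.9, 57.4, 63.7 and 51.7 in jj (0.26, SE 0.09). Grin2b had 0.20 (SE 0.07) and Grin2c 0.42 (SE 0.16, and 0.63 without Nj 2), and in each the ranges overlapped. Among GABA-A receptor genes, 6 of 14 were positive (median -0.03) and 2 were higher at p under 0.05, against 3.69% of all genes: Gabrb1 (0.20, SE 0.07) and Gabrg3 (0.18, SE 0.09). The list median turned to 0.04 without untreated jj 3 (9 of 14 positive) and to 0.04 without those rich in Ttr (12 of 14 positive).

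Of 18 potassium channel genes 11 were positive (median 0.04) and 3 were higher at p under 0.05, against 3.69% of all genes. Kcnq3, a subunit of the M-current channel, held 57.8, 60.4, 58.9, 63.2 and 61.9 CPM in Nj and 62.4, 70.4, 72.1, 71.7 and 68.4 in jj (0.19, SE 0.04). Untreated jj 1 lay within the Nj range and the others above it. Kcnh1 had ranges apart at 23.6 to 26.1 and 26.6 to 29.6 CPM (0.16, SE 0.06). Of synaptic vesicle genes, Sv2a was lower with ranges apart, at 388 to 434 and 367 to 384 CPM (-0.13, SE 0.05), while the list was near 0 (median -0.01). The neurotrophin receptor Ntrk3 held 49.3 to 52.4 and 53.2 to 59.99 CPM (0.13, SE 0.04).

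Genes that handle bilirubin and its precursor differed little. Hmox1, the inducible heme oxygenase, held 7.50, 7.01, 6.36, 8.40 and 8.25 CPM in Nj and 9.49, 6.84, 6.75, 7.70 and 8.20 in jj, and the ranges overlapped, with jj 1 above every Nj pup (0.06, SE 0.11, and -0.02 without jj 1). Hmox2, the constitutive enzyme, had -0.08 (SE 0.05). Blvrb, a biliverdin reductase, had 0.14 (SE 0.07) with an unadjusted p of 0.0488 by edgeR, and 0.08 without untreated jj 3. Of 11 tested export and conjugation genes 9 were positive (median 0.05), with the transporter Slco4a1 at 0.29 (SE 0.13) and the canalicular pump Abcc2 at -0.24 (SE 0.09).

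Stress genes lay on both sides of 0. Of 19 genes of endoplasmic reticulum stress 15 were negative (median -0.04). Ddit3, the stress transcription factor CHOP, was 1 of the 4 with a positive fold change and the only one of them at p under 0.05. It held 7.09, 6.31, 5.98, 6.72 and 5.63 CPM in Nj and 8.20, 9.08, 10.4, 7.80 and 7.14 in jj (0.42, SE 0.11). The ranges were apart, though the closest pups, at 7.09 and 7.14 CPM, nearly met. The chaperones Hspa5 (-0.18, SE 0.10) and Hsp90b1 (-0.16, SE 0.07) were lower by their estimates. Of 20 NRF2 and antioxidant genes 11 were positive (median 0.04), and Gsr, glutathione reductase, had -0.11 (SE 0.04). Of 16 apoptosis and p53 target genes 9 were positive (median 0.00, and -0.03 without untreated jj 3), with Bax at 0.13 and Mdm2 at -0.11.

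The light-treated pups offered the jj against Nj contrast in 10 other animals. Their titles all begin with J18 in both genotypes, so title prefix and genotype were not confounded there, unlike in untreated pups. There 0 genes passed the adjusted threshold by edgeR (lowest adjusted p 0.371) and 1011 had an unadjusted p under 0.05 (6.62%). The test of the difference between the contrasts also called 0 genes (lowest adjusted p 1.00), with 521 at an unadjusted p under 0.05 (3.41%). Of the 972 genes at p under 0.05 in untreated pups, 703 (72.3%) had the same sign in treated pups, against 62.6% of all genes. That share depended on libraries rich in Ttr. Without untreated jj 3 the shares were 52.7% of 713 genes and 51% of all genes, and with the 7 libraries above 1000 CPM of Ttr left out they were 48.3% of 756 and 50%.

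Of the 24 named genes, 14 had the same sign in treated pups. Kdm8 had 0.14 there, and Caln1 had -0.13 where untreated pups had 0.20. At an unadjusted p under 0.05 in both contrasts there were 91 genes. These were 9.36% of the 972, against 6.62% of all genes at that p in treated pups. Of the 91, 81 (89%) had the same sign, against 70.8% of all genes at that p in treated pups. Without untreated jj 3 there were 81, of which 47 had the same sign. With the libraries above 1000 CPM of Ttr left out there were 36, of which 10 had the same sign. Of the 91 with all libraries, Egr1 had -0.32 and -0.30, Npas4 -0.77 and -1.09, and Slc25a37, the mitochondrial iron importer, 0.44 and 0.60. Without untreated jj 3 the untreated value of Slc25a37 was 0.39, with an unadjusted p of 0.0586 by edgeR. Apold1, a gene of endothelial cells, held 9.25, 8.81, 8.34, 9.76 and 11.1 CPM in untreated Nj and 6.51, 7.60, 7.13, 7.80 and 6.64 in untreated jj (-0.41, SE 0.13), and had -0.45 in treated pups. Apold1 was chosen after its values were seen.

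The largest fold changes rested on 1 or 2 libraries. Pdcd5, named for programmed cell death, held 0.25, 0.12, 0.43, 8.12 and 21.8 CPM in jj and 0 to 0.47 in Nj (4.81, SE 2.14). Brd2, a bromodomain protein, held 7.56 in jj 3 and 17.7 in jj 5 and 0.77 to 1.04 in the other jj pups. Rplp2, a ribosomal protein, held 25.6 CPM in jj 2 and 0.87 to 1.32 in the others. In each, the remaining jj pups held levels near those of Nj. Tsnaxip1 was steadier but of opposite sign by light: -0.62 (SE 0.20) in untreated and 0.65 in treated pups, with an adjusted p of 1.00 by edgeR for that difference.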

How the data were processed

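The deposited table holds the authors' raw read counts per rat Ensembl gene for 20 hippocampal libraries, with no normalisation. The submitters' processing notes list TopHat2 2.0.13, Subread, FastQC and edgeR. They name only a mouse build. The rat build is not given in the sources used here, and no coordinates come from the table. Groups follow the labels, and pups are numbered in accession order. The series text speaks of 6 untreated pups; 5 per group were analysed here.

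Genes passing filterByExpr entered, after TMM scaling, 1 quasi-likelihood model of the 4 group means over all 20 libraries (edgeR 4.0.16, limma 3.58.1, R 4.3.3; two-sided, Benjamini-Hochberg over 15272 genes, threshold 0.05). All groups share 1 estimate of spread. DESeq2 1.42.0 was an alternative. CPM use the TMM-scaled totals. The model was tested on simulated data. Of genes with a named symbol and log2 CPM averaging 1 or more, the rule named the 12 of lowest p in each direction with ranges apart, the 5 highest and 5 lowest folds, the 3 of lowest p per list, and a fixed set. The comparison, the 41 gene lists and the rule were chosen with earlier results of these data known, so list counts are descriptions. Alternatives were other size factors, filters, estimates and covariates, Nj libraries of 1 prefix, and leaving out libraries. Counting error limits genes of few counts; depth is given with the results. A few genes that the rule names are left out of the text, while the counts include them.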

Additional observations from a re-analysis of the deposited data

Results flagged for a closer look

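Of 188 sets of 5 values examined for the genes named and for library measures, 24 (12.8%) had 1 pup far from the other 4, where chance flags about 5% of groups. Untreated jj 3 accounted for 6 of these, jj 5 for 4, and jj 2 and Nj 5 for 3 each.

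In untreated jj 3, Ttr was highest (9662 CPM, others 6.73 to 159) and Trappc6a was highest (11.9, others 6.80 to 8.25). The same library was lowest for the first Anp32a entry (19.1, others 25.8 to 27.9), for the sum of both entries (38.7, others 46.3 to 48.0), for Gabrg3 (8.98, others 11.1 to 11.8) and for Klhl7 (99.6, others 132.6 to 142.4). Ttr was also apart in untreated Nj 3 (4111 CPM). In untreated jj 5, C1qa (13.9 CPM), Gfap (213, others 282.7 to 306.4) and Itgal (3.36) were the lowest jj values, and Rangap1 (249.7) the highest.

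In untreated jj 2, Dgkh (16.9 CPM) and Rplp2 (25.6) were highest and Rufy1 (21.3) lowest. Tuba1c reached 12.3 CPM in jj 4, and Uba1 494 in jj 1. Among Nj pups, the Eno2 entry ENSRNOG00000048365 reached 30.3 CPM in Nj 5 (others 2.02 to 2.58), the second Anp32a entry 31.7 in Nj 5, and Per3 was lowest there (18.8). Tagln3 reached 23.1 CPM in Nj 4, Fibcd1 1.49 and Grin2c 19.9 in Nj 2, and Rplp2 1.75 in Nj 1, where Gsr was lowest (43.5). None of these was weighed further.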

How the results depend on the processing

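The count of genes past the adjusted threshold, 0, was 1 by DESeq2 and 0 to 1 when each library was left out (1 without untreated Nj 5), and 0 in the other alternatives. The 972 genes at an unadjusted p under 0.05 became 713 to 1692 on leaving out each library, with 1692 without untreated jj 5. They became 658 with untreated libraries alone and 756 without libraries above 1000 CPM of Ttr. With meningeal and choroid plexus covariates there were 1375, and without a count filter 1248. The 153 genes with ranges apart became 656 with Nj libraries of prefix J15 alone and 448 without libraries above 1000 CPM of Ttr. They became 235 to 577 on leaving out each library. Fewer samples overlap less often, and how far this accounts for these counts was not tested. The share of genes bounded within 1.5-fold, 82.3%, was 57.7% without a count filter and 55% by DESeq2, which both add genes of few counts. It was 83.9% at a mean count of at least 10, 84% with untreated libraries alone, 83.8% with meningeal and choroid plexus covariates, 77.7% with prefix J15 alone, 80.5% without libraries above 1000 CPM of Ttr and 79.7% to 81.7% on leaving out each library. The difference between contrasts called 0 genes throughout. The cause of the change without untreated Nj 5 or jj 5 was not tested.

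Of 1819 values for 91 named genes under alternatives, 16 in 6 genes changed sign (Eno2, Hmox1, Rplp2, Ttr, Tuba1c and the Uchl3 entry ENSRNOG00000009530), and 2 passed the threshold, both of Anp32a. Of 820 list medians 79 changed sign, in 19 lists. A genotype contrast averaged over light, chosen after seeing the data, called 0 genes (lowest adjusted p 0.408 by edgeR; 1709 at an unadjusted p under 0.05). Leaving out jj 3 as a named alternative, and the settings for lists, were also chosen after seeing the data. No paired analysis was possible because replicate numbers only follow accession order and the labels link no pups across groups.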

Other observations

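Fibcd1, a gene of hippocampal CA1, was near 0 in some pups and clearly present in others. It held 0.07, 1.49, 0.05, 0.10 and 0.04 CPM in untreated Nj and 2.23, 1.06, 1.74, 1.53 and 1.71 in untreated jj. In light-treated pups it held 1.04, 0.70, 1.11, 0 and 0 in Nj and 1.84, 2.47, 1.07, 0 and 0.09 in jj. Another subfield gene, Mpped1, held a mean of 322 CPM in untreated jj and 321 in untreated Nj. Red blood cell genes were negative in 7 of 8 in untreated pups (median -0.16) and positive in 6 of 8 in treated pups (median 0.14), with 0 at an unadjusted p under 0.05 in either. Without untreated jj 5 their untreated median was -0.02, with 3 of 8 positive. Ependymal genes were negative in 8 of 10 in untreated pups (median -0.10) and positive in 10 of 10 in treated pups (median 0.29). The untreated median was -0.25 without untreated jj 3, -0.05 without untreated jj 5 and -0.01 (5 of 10 positive) with meningeal and choroid plexus covariates.

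Of 13 mitochondrially encoded respiratory chain genes 10 were negative (median -0.07). Without untreated jj 3, 12 of 13 were positive (median 0.09), with 4 higher at p under 0.05, where 429 of 15352 genes were. Without the libraries rich in Ttr 12 of 13 were positive (median 0.09), with 4 higher, where 389 of 15495 were. With all libraries only Mt-nd6 had p under 0.05, at 20.4 to 66.9 CPM in untreated Nj and 6.69 to 35.5 in untreated jj. Its fold change was -0.73 (SE 0.33), and -0.48 without untreated jj 3, where its value was lowest. Tfrc, the transferrin receptor, was also lowest there, at 86.9 CPM, against 122 to 149 in the other jj pups and 139 to 165 in Nj (-0.28, SE 0.11, and -0.17 without that library). The 2 Uchl3 entries differed: ENSRNOG00000046120 had -1.47 (SE 0.46) and ENSRNOG00000009530 -0.01 (SE 0.42), and the level of either is uncertain because reads of similar copies can be divided between entries.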
